A study of Mus musculus with 6 samples.

Results

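The cholinergic neuron genes described here are the 8 genes Chat, Slc18a3, Slc5a7, Slc10a4, Ache, Bche, Prima1 and Lhx8, which cover acetylcholine synthesis, vesicle loading, choline uptake and acetylcholine breakdown. They were taken by symbol through their Ensembl identifiers in GENCODE M21 (build GRCm38), and each symbol matched 1 row of the 60354 features listed for every mouse. All 8 passed the filter on low counts. The genes were proposed with their values in these 6 mice already known, chosen by their CPM with PLDP against control, so the comparison of the diets for these 8 genes is a description and carries no test. RNA-seq had been performed on whole brains of male C57BL/6NCrSlc mice, which were 16 weeks old when feeding began. The 3 control mice (C2, C5 and C10) had been fed a modified AIN-93M diet with its total calories adjusted to the other diet, and the 3 PLDP mice (P17, P22 and P26) PLDP at 20% of the same kind of diet, PLDP being a protease-treated porcine liver product that contains choline phospholipids, in each case for 16 weeks. The choline bitartrate supplement was the same in both diets. All mice then went through the behavioral tests, during which the PLDP mice did not receive PLDP, and RNA was extracted afterwards. No region was dissected, so each value is an average over every cholinergic cell group of the brain that the sample held. In such bulk RNA, fewer cells of a type and less RNA per cell cannot be told apart.

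Acetylcholine is made from choline and acetyl-CoA by choline acetyltransferase (Chat). It is loaded into synaptic vesicles by the vesicular acetylcholine transporter (Slc18a3), and after release it is split by acetylcholinesterase (Ache), which sits on the membrane through its anchor (Prima1). The freed choline returns to the terminal through the high-affinity choline transporter (Slc5a7), the step usually held to limit acetylcholine synthesis. Cholinergic neurons of the brain lie in the basal forebrain, among the interneurons of the striatum, in the medial habenula, in the tegmentum of the pons and midbrain, and in the motor nuclei of the brainstem.

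Promoter windows are shown for the genes on which the comparison turns: Chat and Slc18a3, which share a locus, Slc5a7, which showed the largest difference between the diets, and Prima1, which showed the next largest. Each window runs from 250 bases before to 50 bases after a RefSeq start site (GRCm38.p6, 5′ to 3′ on the strand of the gene), at chr14:32465860-32466159, chr14:32464801-32465100, chr17:54298985-54299284 and chr12:103242097-103242396, all on the minus strand. Capitals mark matches, on either strand, to GGGCGG (a GC box), TGACG (the core of a cyclic AMP response element) and TATAAA.
Chat: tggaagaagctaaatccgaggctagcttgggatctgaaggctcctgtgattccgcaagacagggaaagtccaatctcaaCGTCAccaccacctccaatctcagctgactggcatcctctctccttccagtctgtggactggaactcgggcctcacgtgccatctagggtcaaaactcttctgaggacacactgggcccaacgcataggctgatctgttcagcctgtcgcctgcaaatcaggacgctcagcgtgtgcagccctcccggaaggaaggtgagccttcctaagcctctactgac
Slc18a3: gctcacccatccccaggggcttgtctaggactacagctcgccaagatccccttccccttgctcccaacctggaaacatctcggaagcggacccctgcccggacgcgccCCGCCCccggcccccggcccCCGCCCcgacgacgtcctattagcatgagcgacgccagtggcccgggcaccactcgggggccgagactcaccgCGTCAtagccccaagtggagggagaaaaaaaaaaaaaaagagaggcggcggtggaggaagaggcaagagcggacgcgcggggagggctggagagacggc
Slc5a7: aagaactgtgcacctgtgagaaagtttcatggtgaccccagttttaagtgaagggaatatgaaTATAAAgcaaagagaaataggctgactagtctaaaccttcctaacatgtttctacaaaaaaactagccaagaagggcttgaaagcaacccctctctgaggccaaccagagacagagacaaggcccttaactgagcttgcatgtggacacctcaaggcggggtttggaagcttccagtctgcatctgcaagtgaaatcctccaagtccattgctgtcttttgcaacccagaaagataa
Prima1: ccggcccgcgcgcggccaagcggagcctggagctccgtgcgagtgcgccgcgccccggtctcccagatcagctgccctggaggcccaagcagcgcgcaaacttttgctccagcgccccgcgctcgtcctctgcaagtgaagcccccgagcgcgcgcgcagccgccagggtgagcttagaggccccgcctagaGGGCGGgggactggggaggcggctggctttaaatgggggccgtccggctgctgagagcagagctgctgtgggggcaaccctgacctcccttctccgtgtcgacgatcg

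The Slc18a3 window held 2 GC boxes and 1 TGACG core, the Chat window 1 TGACG core, the Prima1 window 1 GC box, and the Slc5a7 window neither of these but 1 TATAAA match, which began 187 bases before the start site. Of all 32851 windows of this length in the table, 35.7% held GGGCGG, 20.8% TGACG and 13.6% TATAAA. The windows also differed in base composition. G and C made up 67% of the Slc18a3 window and 71.7% of the Prima1 window, with 27 and 33 CpG dinucleotides, against 55.7% and 10 for Chat and 44.7% and 1 for Slc5a7, beside a median of 52.7% and 7 over all windows. The full element TGACGTCA and the LIM homeodomain core TAATTA were found in none of the 8 members' windows, and over all windows they were present in 1.79% and 5.29%. These matches describe the letters in the windows and nothing further.

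Chat (ENSMUSG00000021919, chromosome 14, 32408203 to 32465989) and Slc18a3 (ENSMUSG00000100241, chromosome 14, 32462438 to 32464850) form the cholinergic gene locus. Both are read from the minus strand. Slc18a3 is a gene of a single exon that begins 1139 bases and ends 3551 bases after the Chat start, between the end of the first exon block of Chat at 182 bases and the start of the second at 3947. The gene is thus intronic to Chat, and the annotated exons of the genes share 0 bases. Gm2990, an antisense gene that overlaps the Chat span without sharing exon sequence, had at most 8 counts in a mouse. Slc5a7 (ENSMUSG00000023945) lies on chromosome 17 from 54273590 to 54299034. Ache lies on chromosome 5 from 137287519 to 137294466 and shares 98 bases of exon with Gm42456, a noncoding gene on the opposite strand that had at most 103 counts. Prima1 lies on chromosome 12 from 103196908 to 103242150.

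**Figure D1:**
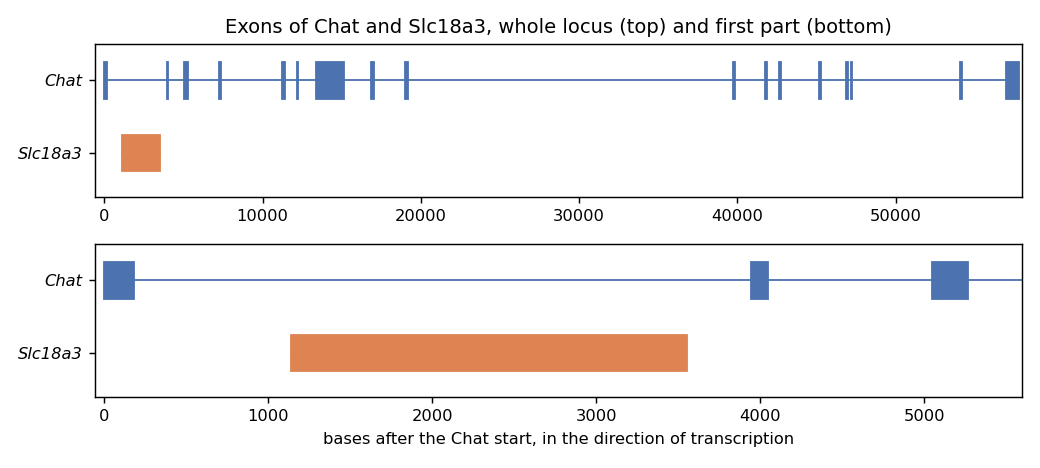
Exons (boxes) of Chat and Slc18a3 along the number of bases after the Chat start, over the whole locus in the upper panel and its first part in the lower panel. Slc18a3 lies wholly between the first and second exon blocks of Chat, from 1139 to 3551 bases.

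The levels of the 8 genes can be compared with each other only per exon length. On that scale (RPKM, CPM divided by kilobases of annotated exon, mean ± SD over all 6 mice) Ache was highest with 20.3 ± 0.98 and Prima1 followed with 12.7 ± 1.76. Both were far above the other 6 members, which ranged from 2.29 ± 0.24 for Slc10a4 to 0.59 ± 0.08 for Lhx8. In between, Slc18a3 had 1.79 ± 0.18, Slc5a7 1.66 ± 0.40, Bche 1.40 ± 0.13 and Chat 1.06 ± 0.12 RPKM. The ranges of neighboring genes in this order overlapped from Slc10a4 down to Bche, whereas the ranges of Ache, Prima1, Chat and Lhx8 did not overlap those of their neighbors, except that Chat and Slc5a7 met at 1.19 and 1.18. Among the features tested that have an annotated length, 84.3% were below Ache and 22.7% below Chat. Chat, Slc18a3 and Slc10a4 rested on 78 to 121 counts per mouse. At those counts, counting alone gives a coefficient of variation of about 9.73% to 10.5%, and Lhx8, with 23 to 39 counts, had one of 17.7%. Small differences in these genes were therefore not detectable at this depth, while Ache, with 1675 to 2258 counts, had a counting error of 2.24%.

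Slc5a7, the high-affinity choline transporter, was lower in the PLDP mice. The control mice had 11.3, 10.7 and 11.7 CPM (counts scaled to the library size after TMM normalization, in the order C2, C5 and C10), and the PLDP mice had 6.79, 6.67 and 8.98 CPM (P17, P22 and P26). All 3 PLDP mice lay below all 3 control mice, with P26 nearest to them. The PLDP mean was 66.6% of the control mean, a log2 fold change of -0.60 (standard error 0.12, n = 3 mice each). Leaving out each mouse in turn gave log2 fold changes between -0.74, without P26, and -0.52, without P22.

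Chat, the synthetic enzyme, did not show this difference. The control mice had 5.58, 5.04 and 4.12 CPM and the PLDP mice 4.51, 5.07 and 5.56 CPM, so that the diets covered nearly the same range. The PLDP mean was 103% of the control mean, and the log2 fold change was 0.03 (standard error 0.14). Its 95% interval ran from 17.1% lower to 26.5% higher, which leaves room for moderate differences in either direction.

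Slc18a3, the vesicular transporter inside the Chat locus, had 4.86, 4.63 and 3.88 CPM in the controls and 4.56, 3.77 and 4.17 CPM with PLDP. The diets overlapped here as well, and the log2 fold change was -0.10 (standard error 0.15), with a 95% interval from 24.6% lower to 15.4% higher. On the log2 scale the interval of Chat ran from -0.27 to 0.34, that of Slc18a3 from -0.41 to 0.21 and that of Slc5a7 from -0.84 to -0.35, so the intervals of Slc18a3 and Slc5a7 overlapped. The difference between the genes was not tested.

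Slc10a4, a vesicle-associated member of the bile acid transporter family found in cholinergic and monoaminergic neurons, had 5.68, 4.58 and 4.17 CPM in the controls and 4.60, 4.82 and 5.02 CPM with PLDP. Its means were 4.81 ± 0.78 and 4.82 ± 0.21 CPM (SD, n = 3 each). The PLDP mice lay within the range of the control mice, and the 95% interval of the difference ran from 18.7% lower to 23.2% higher.

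**Figure D2:**
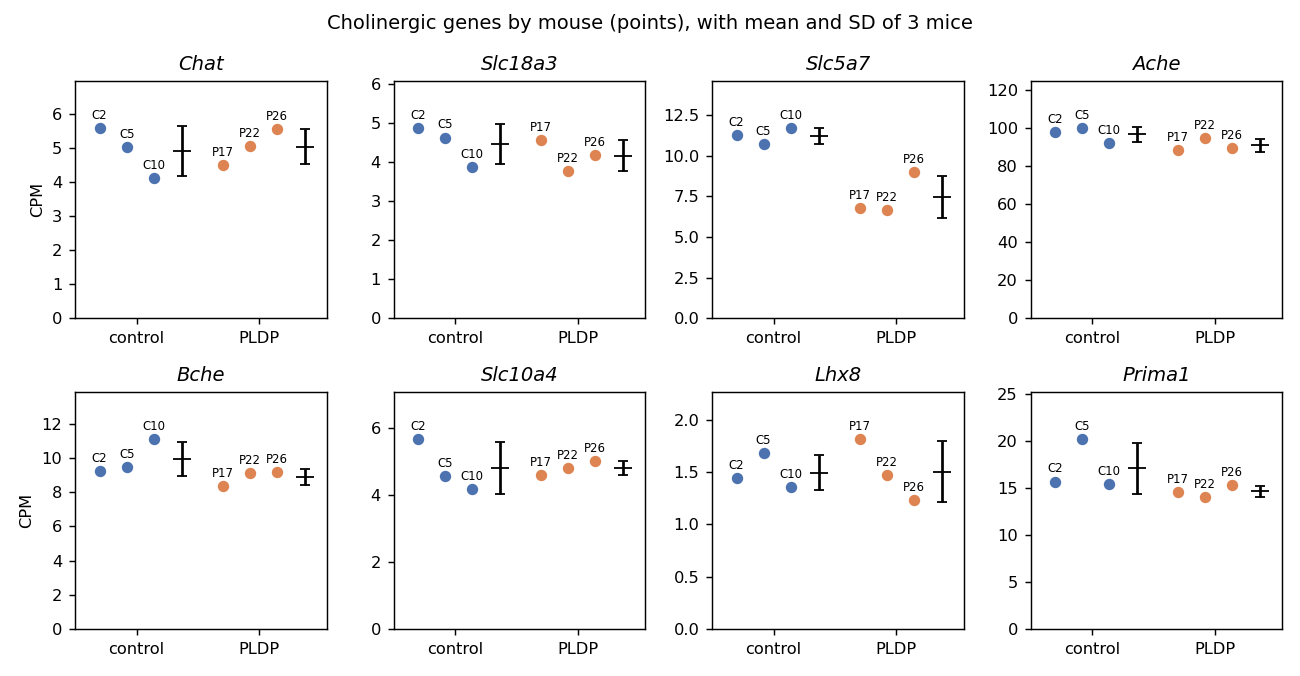
CPM of each of the 8 genes in each mouse (points, control in blue and PLDP in orange) with the mean and SD of the 3 mice of a diet (black), every axis starting at 0. The PLDP mice lie between 6.67 and 8.98 CPM for Slc5a7, below the 10.7 to 11.7 CPM of the control mice, while Chat, Slc18a3, Slc10a4 and Lhx8 overlap.

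The ratio of one gene to another within a mouse does not depend on how the libraries are scaled. Chat per Slc5a7 was 0.49, 0.47 and 0.35 in C2, C5 and C10, and 0.66, 0.76 and 0.62 in P17, P22 and P26. The ratio was higher in every PLDP mouse than in every control mouse. Slc5a7 per Slc18a3 was 2.33, 2.31 and 3.01 in the controls and 1.49, 1.77 and 2.15 with PLDP, again without overlap. By contrast, Chat per Slc18a3 was 1.15, 1.09 and 1.06 in the controls and 0.99, 1.34 and 1.33 with PLDP, and these ranges overlapped.

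Ache, the enzyme of acetylcholine breakdown, had 97.8, 99.6 and 92.1 CPM in the controls and 88.2, 94.7 and 89.5 CPM with PLDP. P22 lay above C10, so the diets overlapped, and the log2 fold change was -0.09 (standard error 0.05). Prima1, the membrane anchor of acetylcholinesterase, had 15.7, 20.2 and 15.4 CPM in the controls and 14.6, 14.0 and 15.3 CPM with PLDP. The 3 PLDP mice were below the 3 control mice, but P26 and C10 were almost level, and C5 stood well above all other mice. Its log2 fold change was -0.23 (standard error 0.10), or -0.09 without C5.

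Bche, butyrylcholinesterase, which also splits acetylcholine and is made largely outside cholinergic neurons, had 9.24, 9.48 and 11.1 CPM in the controls and 8.37, 9.14 and 9.19 CPM with PLDP. The groups did not overlap, but P26 and C2 were almost level. The log2 fold change was -0.16 (standard error 0.10). The ratio of Ache to Bche counts overlapped between the diets, with 9.80 ± 1.30 in the controls and 10.2 ± 0.42 with PLDP (SD, n = 3 each), as did that of Ache to Prima1.

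Lhx8, a LIM homeodomain transcription factor that specifies forebrain cholinergic neurons, was the member with the lowest level. It had 1.44, 1.68 and 1.36 CPM in the controls and 1.81, 1.47 and 1.23 CPM with PLDP. The highest and the lowest value both came from PLDP mice, and the log2 fold change of 0.01 (standard error 0.23) had a 95% interval from 28.2% lower to 42.1% higher.

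Counted at an unadjusted p under 0.05 from edgeR's quasi-likelihood test, 2 of the 8 members were called, Slc5a7 and Prima1, both lower in the PLDP mice. Of 12 alternative fits, Slc5a7 was called in 12, Prima1 in 8 and Ache in 2. Over all 18580 features tested, 8.6% were called and 3.69% were called lower. With Benjamini-Hochberg adjustment over all features, 0 of the 8 members passed 0.05, beside 0.0323% of all features. The PLDP mice lay entirely below the control mice for 3 of the 8 genes, which were Slc5a7, Prima1 and Bche, and this held for 6.9% of all features. For 0 of the 8 genes did they lie entirely above, against 7.29% of all features. Of the 8 genes, 5 had a fitted value below 0, as did 50.2% of all features. The median log2 fold change was -0.09 over the 8 genes and -0.00062 over all features. Since the genes were proposed from this comparison, nothing is read from these shares.

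**Figure D3:**
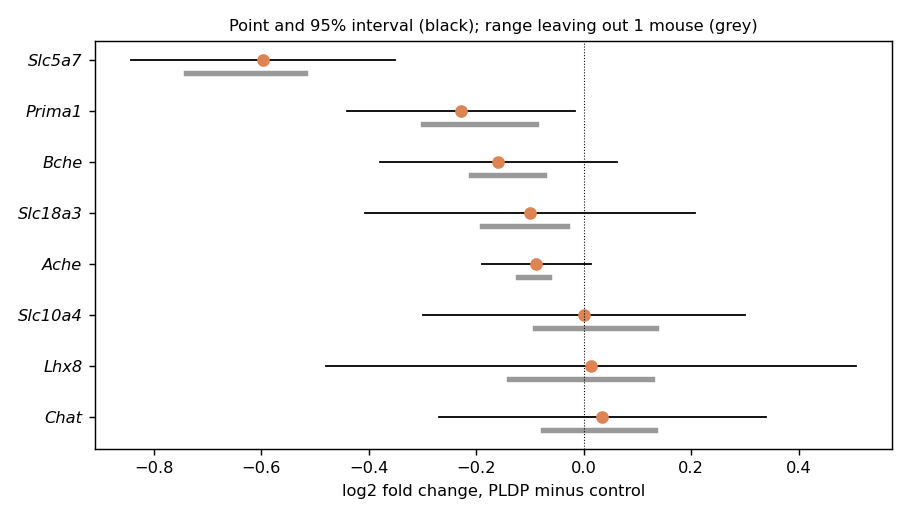
Log2 fold change of each gene, PLDP minus control (points), its 95% interval from the fit (black lines) and the range over the 6 fits that leave out 1 mouse (grey bars). Slc5a7 has the lowest value at -0.60, and its interval overlaps those of Prima1, Slc18a3, Bche and Lhx8. Prima1 is next at -0.23, or -0.09 without C5.

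A 6-mouse pattern for the transmitter genes was taken as the mean of the log2 CPM of Chat, Slc18a3 and Slc5a7, each centered on its own mean. It was 0.22, 0.12 and -0.02 in C2, C5 and C10 and -0.16, -0.20 and 0.03 in P17, P22 and P26. Among 13654 other named features with a mean of at least 1 CPM, the 5 closest to it were Mthfsl, Galnt4, Trim59, Zfp791 and H2-DMa, with root mean square differences of 0.034 to 0.048 on the log2 scale, against a median of 0.17 over all of them. The transmitter genes were themselves farther from their mean than these features were, at 0.12 for Slc18a3, 0.15 for Chat and 0.22 for Slc5a7. However, the 5 features were picked as the closest of 13654. Counting alone also scatters Chat by 9.73% and Slc18a3 by 10.5%. The distances therefore cannot show whether the transmitter genes followed a common pattern. Chosen after the values had been seen, the same measure was also taken from Slc5a7 alone. Ap1s3 was the closest feature, with a distance of 0.10. Glra1 and Slc6a5, a receptor subunit and a transporter of glycinergic transmission, were in places 6 and 10 with 0.15 and 0.16, and Hoxb3, another caudal marker, was in place 5748 with 0.33. The distance depends on the size of a change as well as on its direction. The log2 fold changes were -0.60 for Slc5a7, -0.50 for Glra1, -0.66 for Slc6a5 and -1.05 for Hoxb3. For each of these genes, every PLDP mouse was below every control mouse. The places are a description and carry no test. Bche was the closest member, in place 454, and Chat was in place 9772.

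The receptors that acetylcholine acts on were examined as lists. Of the 5 muscarinic receptor genes, all tested, 1 was called higher and 0 lower in the PLDP mice (8.6% of all features were called in either direction). This was Chrm1, which also had the highest mean count, with 110.4, 112.3 and 111.3 CPM in the controls and 119.1, 124.3 and 122.6 CPM with PLDP. All PLDP mice were above all control mice, with a log2 fold change of 0.13 (standard error 0.04, edgeR adjusted p = 0.357). Of the 16 nicotinic subunit genes, 11 were tested and 0 were called at an unadjusted p under 0.05. DESeq2 and limma voom called 0 as well. Chrnb2, the most abundant subunit by count, had 82.8 ± 2.47 and 83.5 ± 2.49 CPM (SD, n = 3 each). The median log2 fold change was -0.05 over the muscarinic and -0.08 over the nicotinic list.

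Of 12 genes for nicotinic receptor chaperones, Ly6-family modulators and partners of cholinesterase or the neuromuscular receptor, 11 were tested, and 0 were called at an unadjusted p under 0.05 by edgeR, DESeq2 or limma voom, beside 8.6% of all features in edgeR. Lynx1, the most abundant of them, had 394.4 ± 23.4 CPM in the controls and 411.0 ± 23.8 with PLDP (SD, n = 3 each). Colq, the collagen tail that anchors acetylcholinesterase at the neuromuscular junction, had at most 2 counts in a mouse. Prima1 was thus the cholinesterase anchor detected in these brains at more than trace level.

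Of 30 genes of choline transport and choline phospholipid turnover outside the 8 members, 25 were tested, and 2 were called higher and 3 lower, beside 4.91% and 3.69% of all features. Without C2, 1 of them was called higher and 1 lower, and without C5, 2 higher and 1 lower. Without P17, 0 were called higher and 3 lower, and without P26, 1 higher and 2 lower. Their summed level was between 99.3 and 101.2 percent of the control mean in the controls and between 90.5 and 96.2 percent with PLDP. Most of this difference came from Enpp2 alone: without that gene, left out after the values were seen, the sums with PLDP were between 96.8 and 99.4 percent of control. The controls then lay between 99.96 and 100.08 percent, so every PLDP mouse was still below every control mouse. Their median log2 fold change was -0.01. Slc44a1, the ubiquitous low-affinity choline transporter, had 96.3 ± 2.39 and 93.5 ± 0.54 CPM (SD, n = 3 each), and its diets overlapped. Enpp2, which encodes autotaxin, an enzyme that releases choline from lysophosphatidylcholine, had the highest count and the smallest p of the list. It had 501.9, 528.0 and 498.6 CPM in the controls and 374.1, 484.2 and 424.6 CPM with PLDP, with all PLDP mice lower (log2 fold change -0.25, standard error 0.06, edgeR adjusted p = 0.223). Autotaxin is also made by the choroid plexus, whose 7 markers summed to between 754.4 and 810.7 CPM in the controls and between 591.8 and 752.0 with PLDP, with 2 of the 7, Ttr and Folr1, called lower (3.69% of all features) and all of them detected in every mouse. Ttr made up 90.0% of the control sum. Without it, as chosen after the values were seen, the sums were between 75.1 and 82.2 CPM in the controls and 56.4, 82.4 and 78.5 CPM in P17, P22 and P26, so that P17 alone lay below the control range. Without P17 the median log2 fold change of the 7 markers moved from -0.16 to 0.01, and 1 was called without P17, C2 or C5, by DESeq2 and by limma voom. In the other direction, 3 were called with no filter and without P22, where the median was -0.28. The part of the choroid plexus in the Enpp2 result was not tested. Pcyt1a, the rate-limiting enzyme of phosphatidylcholine synthesis, and Gpcpd1, a glycerophosphocholine phosphodiesterase, were called lower with log2 fold changes of -0.13 and -0.11 (adjusted p = 0.484 and 0.513). Slc22a3, an organic cation transporter, was called higher, with 1.78 ± 0.16 and 2.62 ± 0.55 CPM (SD, n = 3 each) and every PLDP mouse above every control mouse (log2 fold change 0.56, standard error 0.20, adjusted p = 0.448). Pnpla7, a lysophospholipase, had a log2 fold change of 0.20 (adjusted p = 0.527), and its diets overlapped.

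The supply of acetyl-CoA, the other substrate of choline acetyltransferase, was represented by 9 genes, all tested. At an unadjusted p under 0.05, 3 were called lower and 0 higher with PLDP, beside 3.69% and 4.91% of all features. Acly, ATP citrate lyase, had 217.1, 216.7 and 214.5 CPM in the controls and 194.0, 198.9 and 199.9 CPM with PLDP, a small difference well outside the spread of either group (log2 fold change -0.13, standard error 0.04, edgeR adjusted p = 0.306). Pdha1 and Dld, subunits of the pyruvate dehydrogenase complex, had log2 fold changes of -0.11 and -0.12 (adjusted p = 0.440 and 0.493). For 5 of the 9 genes every PLDP mouse was below every control mouse, which held for 6.9% of all features. These genes are used by every cell of the brain, and the median log2 fold change of the list was -0.07.

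**Figure D4:**
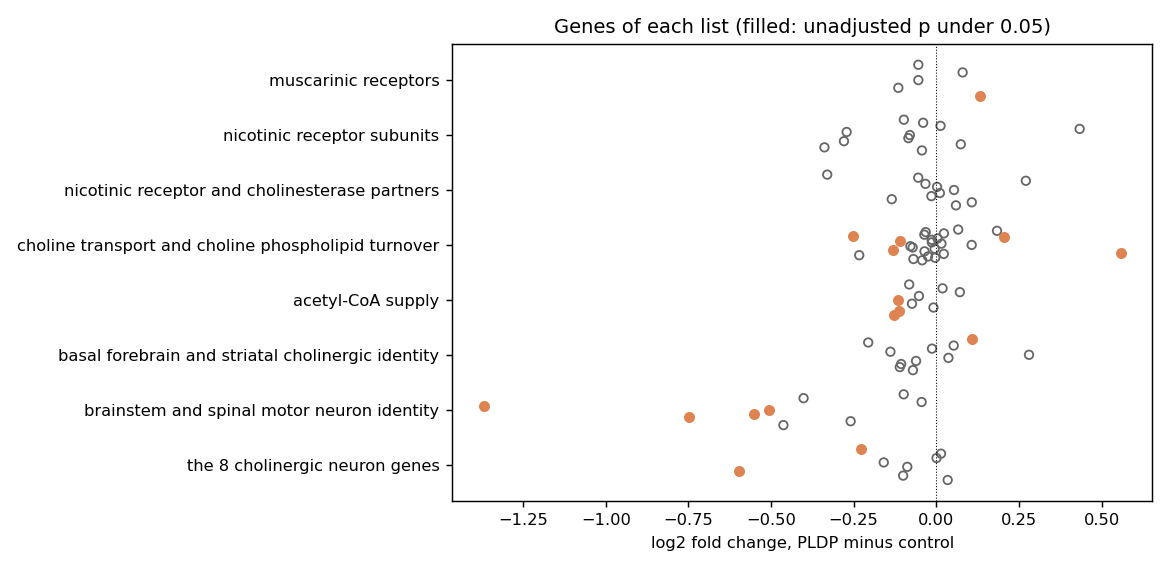
Log2 fold change, PLDP minus control, of every tested gene in the 7 pathway lists and of the 8 cholinergic neuron genes; filled points have an unadjusted p under 0.05. The receptor and partner lists hold 1 filled point, Chrm1 at 0.13, and the brainstem and spinal motor neuron list reaches -1.37 with Calcb.

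Markers of the places where cholinergic neurons lie were set beside the 8 genes. Snap25, a general neuronal gene, had 1867 ± 18.4 and 1887 ± 47.2 CPM (SD, n = 3 each), and the sum of 5 general neuronal genes was between 4395 and 4574 CPM in every mouse. In the list for basal forebrain and striatal cholinergic identity, 11 of 11 genes were tested and 1 was called, beside 8.6% of all features. This was Etv1, with a log2 fold change of 0.11 (edgeR adjusted p = 0.553), and 0 were called by DESeq2 or without C2, C5, P22 or P26. Zic1, the most abundant of them, had 206.7 ± 11.5 and 214.2 ± 14.7 CPM (SD, n = 3 each). Isl1, which acts with Lhx8 in forebrain cholinergic neurons, had 2.87 ± 0.49 and 2.73 ± 0.05 CPM (SD, n = 3 each). Zic1 and Etv1, which are also expressed outside cholinergic neurons, made up 87.4% of the summed level of the list in the controls. Of the 11 genes, 7 had a fitted value below 0, beside 50.2% of all features, and the median log2 fold change was -0.06. The sum of the other 9 genes was between 94.5 and 103.1 percent of control in the controls and between 96.5 and 99.5 percent with PLDP. For 0 of the 11 genes did the diets separate, beside 6.9% of all features with every PLDP mouse lower and 7.29% with every PLDP mouse higher. The 10 markers of striatal projection neurons summed to between 847.5 and 903.2 CPM in the controls and between 847.1 and 902.0 with PLDP, and 0 were called by edgeR, DESeq2 or limma voom at an unadjusted p under 0.05, although 1 was called lower without C2. Ppp1r1b, which encodes DARPP-32, had 252.2 ± 13.4 and 248.6 ± 10.7 CPM (SD, n = 3 each). Of 6 genes of the medial habenula, the most abundant, Nwd2, had 31.4 ± 0.10 and 32.3 ± 2.31 CPM (SD, n = 3 each), and 1 was called lower, beside 3.69% of all features, or 2 without C5 or P26. This was Pou4f1, a transcription factor also present in other neurons. It had 4.09, 3.58 and 3.83 CPM in the controls and 3.16, 2.35 and 2.24 CPM with PLDP (log2 fold change -0.56, standard error 0.17, adjusted p = 0.326).

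Of 14 genes for brainstem and spinal motor neuron identity, 9 were tested, and 4 were called lower and 0 higher, beside 3.69% and 4.91% of all features. The other 5 were not called, and the diets separated for 3 of the 9, beside 6.9% of all features. All 9 had a fitted value below 0, as did 50.2% of all features, and the median log2 fold change was -0.46. Prph, peripherin, an intermediate filament of motor neurons and other neurons with peripheral axons, lay between 5.87 and 9.03 CPM in the controls and between 3.77 and 7.44 CPM with PLDP, which overlapped (log2 fold change -0.55, edgeR adjusted p = 0.444). Calcb, a calcitonin gene-related peptide gene, was at or below 0.68 CPM in every mouse and had a log2 fold change of -1.37 (adjusted p = 0.326). Ret, a neurotrophic factor receptor and the most abundant gene of the list, had 29.2 ± 0.42 and 27.3 ± 0.32 CPM (SD, n = 3 each) and was not called. Without C2, 1 gene of this list was called, and DESeq2 also called 1. The defining motor neuron factors Mnx1 and Isl2 had at most 3 and 4 counts in a mouse.

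Of 17 hindbrain and spinal cord markers, 13 were tested, 12 were called lower (3.69% of all features) and 0 higher, and the median log2 fold change was -0.96. Their summed level was 169.7, 153.2 and 153.7 CPM in the controls and 120.0, 77.1 and 108.1 CPM with PLDP, and P22 was lowest. Slc6a5, the glycine transporter of glycinergic neurons, had 49.4, 44.0 and 42.1 CPM in the controls and 31.0, 22.4 and 32.7 CPM with PLDP (log2 fold change -0.66, edgeR adjusted p = 0.037). Glra1, a glycine receptor subunit, and Hoxb3, a transcription factor of the caudal hindbrain, had log2 fold changes of -0.50 and -1.05 (adjusted p = 0.059 and 0.079), and every PLDP mouse was below every control mouse for both. Hoxb8 had 0 counts in P22 and P26, and Hoxa2, Hoxb7, Hoxd3 and Hoxd4 did not pass the filter. Without P22, 8 genes were called lower and the median log2 fold change was -0.56. Of 8 markers of other transmitter neurons of hindbrain and midbrain, 0 were called by edgeR, DESeq2 or limma voom (unadjusted p under 0.05), beside 8.6% of all features in edgeR, although 1 was called lower with no filter and without C2 or P26. The median of their log2 fold changes was -0.02, and their sum was at 81.4, 94.7 and 105.6 percent of control in P17, P22 and P26. Lists of other cells were examined as well, and their sums separated between the diets for some and overlapped for others. With PLDP, the 8 markers of cortical and hippocampal projection neurons summed to between 102.6 and 107.0 percent of the control mean. In the controls the sum was between 98.0 and 101.5 percent. Of the 8, 1 was called higher, beside 4.91% of all features. The 6 microglial markers summed to between 95.4 and 96.8 percent, against 98.2 to 102.7 percent, with 1 called lower, beside 3.69% of all features. Of 6 endothelial markers 2 were called higher, beside 4.91% of all features. Of 8 oligodendrocyte markers 2 were called lower and of 7 astrocyte markers 1, beside 3.69% of all features. The endothelial, oligodendrocyte and astrocyte sums overlapped between the diets. Without C5, 0 cortical, 0 microglial, 1 endothelial and 0 oligodendrocyte markers were called, and without C10 or P26, 0 astrocyte markers. These lists were drawn up with earlier results of the same mice known, so their direction is not independent evidence. As a percent of the control mean, Slc5a7 was at 60.4, 59.3 and 79.9 in P17, P22 and P26, the hindbrain and spinal cord sum at 75.6, 48.5 and 68.0, Chat at 91.8, 103.3 and 113.1, and Slc18a3 at 102.3, 84.7 and 93.6. Slc5a7 and the hindbrain and spinal cord sum were below all control mice in every PLDP mouse, whereas Chat and Slc18a3 overlapped the controls. The order of the PLDP mice in that sum was also the order in Slc18a3, and differences between single mice in Slc18a3 are of the size of its counting error. The part of these markers in the Slc5a7 difference was not tested.

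**Figure D5:**
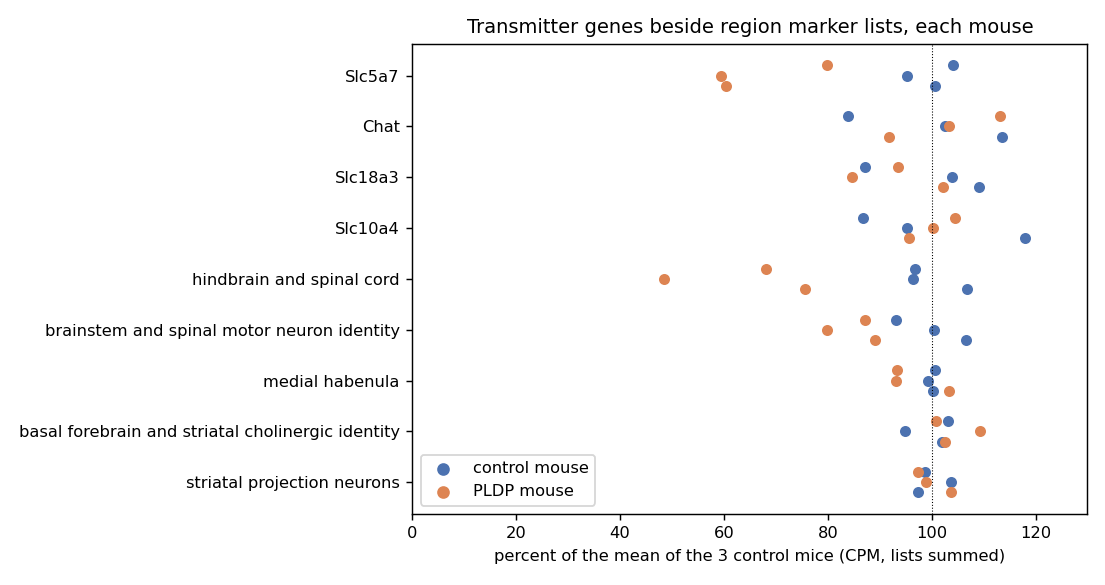
Slc5a7, Chat, Slc18a3 and Slc10a4, and the summed CPM of 5 marker lists, in each mouse as a percent of the mean of the 3 control mice. For Slc5a7 and the hindbrain and spinal cord list the PLDP mice reach at most 79.9 and 75.6 percent, while the striatal and basal forebrain lists overlap between the diets. The basal forebrain sum consists mostly of Zic1 and Etv1, and 7 of its 11 genes have a fitted value below 0.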

How the data were processed

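Polyadenylated RNA of 6 whole brains, 3 per diet, had been sequenced from stranded libraries with paired reads of 150 bases. The authors deposited whole-number read counts per gene for each mouse, not normalized. The submitters' processing notes name cutadapt 2.9, HISAT2 2.2.0, featureCounts 2.6.0 and DESeq2 1.6.3 with the builds GRCh38 and GRCm38, without giving their roles. The annotation and the strand setting are not given in the sources used here, so antisense partners and reads shared between features are uncertain. Totals were between 18797061 and 23938729 counts per mouse. Of the 60354 features, 5320 are numbered features without a gene name, with 0.642% of counts, which were kept. Of 55034 Ensembl identifiers 54777 were found in GENCODE M21. Intervals and depth cover these 6 mice, and 3 mice per diet limit precision.

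Features were kept by edgeR's filterByExpr (minimum count 10, minimum total 15), given TMM factors, and tested in edgeR 4.0.16 by glmQLFit followed by glmQLFTest (R 4.3.3), with diet as the only term and Benjamini-Hochberg adjustment over all 18580 features. Log2 CPM for patterns used a prior count of 2. Alternatives were no filter, relative log expression factors, a minimum of 10 counts in each mouse, library size only, DESeq2 1.42.0, limma voom (3.58.1) and leaving out each mouse. The fits were tested on simulated data. Promoter windows came from a RefSeq table, in which all 8 members were matched. Python 3.11.15, pandas 2.3.3 and matplotlib 3.10.9 served for reading and plotting. The members and lists were chosen with earlier results of these data known. Named were the 8 members, per list the gene with the highest mean count and up to 3 called genes per direction, Slc6a5, Glra1 and Hoxb3, and the 5 features nearest to the transmitter pattern. Genes of the lists of glia, vessels and cortical neurons are not named here. A few genes named by this rule are left out. Some genes outside the rule are also named, such as Slc44a1, Isl1, Hoxb8, Colq, Mnx1, Isl2 and Ap1s3.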

Additional observations from a re-analysis of the deposited data

How the results depend on the processing

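As a description, the log2 fold change of Slc5a7 lay between -0.74 and -0.52 under the 12 alternatives, and that of Prima1 between -0.30 and -0.089 (without C5). Those of Slc18a3, Ache and Bche were below 0 under all 12. Prima1 was not called by DESeq2 or without C5, P17 or P22, and Ache was called without C10 or P22. The sign of 3 members near 0 turned. Leaving out 1 mouse put Chat between -0.076 (without C10) and 0.13, with -0.035 without P26. It put Lhx8 between -0.14 (without P17) and 0.13, with -0.012 without C2 and -0.050 without C10. Slc10a4 was at -0.0020 with no filter, -0.0012 with library size only, and between -0.091 (without C10) and 0.13 without 1 mouse, with -0.034, -0.0028 and -0.029 without C5, P22 and P26. DESeq2 called 564 features higher and 362 lower, against 913 and 685 in edgeR, and 1 of the 8 members, 0 genes of the basal forebrain and striatal list, and 1 of the brainstem and spinal motor neuron list. With no filter 1314 features were called higher and 1046 lower, and 1 receptor or cholinesterase partner was called. With at least 10 counts in every mouse, 2 motor neuron genes were called, from fewer genes tested. Leaving out 1 mouse gave 493 (without C2) to 1072 (without P17) features lower, and 640 (without C2) to 1293 (without P17) higher. It gave 1 (without C5 or P17) to 3 (without C10) members called, 1 to 2 muscarinic receptors, 0 to 2 (without C5) nicotinic subunits, 0 to 1 partners, 2 (without C2) to 5 choline genes, 2 to 3 acetyl-CoA genes, 0 to 1 basal forebrain and striatal genes, and 1 (without C2) to 4 motor neuron genes. Chosen after seeing the data, leaving out Zic1 and Etv1 moved the PLDP sum of the basal forebrain and striatal list from 104.3 to 97.9 percent of control. Except where stated, the cause was not tested. Depth limits Lhx8 most. No paired analysis was possible because the mouse numbers of the diets do not overlap.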
